A study of Rattus norvegicus with 8 samples.

Results

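Aqp4, Slc1a2, Slc1a3, Gja1, Aldoc and Glul encode transporters, channels and enzymes for which astrocytes are known, and their transcripts were followed in rat spinal cord after injury. The 6 genes were chosen by their Ensembl identifiers, which the rule that chose them pairs with these names, and all 6 were among the 32883 identifiers of the deposited table. Libraries came from Sprague Dawley rats 4 days after a hemisection, a cut through a single side of the cord, at thoracic level 9 (injured, n = 4), and from Sprague Dawley rats that had no spinal cord injury (uninjured, n = 4). The labels place the tissue in the upper cord and the title of the series in the upper lumbar cord, and the sources used here do not say whether uninjured rats had a sham operation. The comparison asks how the injury changes transcripts in cord that the design text of the series calls intact. CEL-Seq2 libraries read the 3' end of each transcript and count unique molecular identifiers (UMIs), random tags that mark single RNA molecules.

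Astrocytes clear glutamate from the space around synapses through the transporters that Slc1a3 and Slc1a2 encode, and the glutamine synthetase encoded by Glul turns it into glutamine. The connexin encoded by Gja1 joins neighbouring astrocytes through gap junctions, and the water channel encoded by Aqp4 lies in their endfeet along blood vessels. Aldoc encodes the brain form of aldolase, an enzyme of glycolysis, and is widely used as an astrocyte marker. Some of these genes are also used by other cells of the cord, such as Glul in oligodendrocytes.

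Injured libraries held 195113 to 320199 UMIs and uninjured libraries 112264 to 221177. In the fit of all 3073 genes that passed a filter on low counts, 70 were higher and 6 lower in injured cord, or 2.47% in all (adjusted p below 0.05 by Benjamini-Hochberg in the quasi-likelihood test of edgeR), and 208 were higher and 140 lower, or 11.3%, with the number that an injured and an uninjured library share in their titles taken as a block. Levels below are UMIs per 1000000 (CPM) of the TMM-scaled UMI sum of the 3073 tested genes, unless another scale is named. In bulk tissue, fewer astrocytes and less RNA per astrocyte cannot be told apart. Identifiers are not paired with names for other genes, so defining markers of astrocytes, neurons, oligodendrocytes or microglia were not analysed here, and the part that changes in cell makeup have in these values was not tested.

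None of the 5 genes that could be tested passed, in either direction, with or without the block, and Slc1a2 was too low to be tested. Of the 5 tested genes, edgeR called 0 at adjusted p below 0.05, beside 2.47% of all tested genes. It gave 0 at an unadjusted p under 0.05, beside 14.4%. DESeq2 and limma-voom likewise gave 0 and 0. Over all 3073 tested genes limma-voom called 48 higher and 8 lower, and 245 and 198 had an unadjusted p under 0.05. DESeq2, run on all 32883 identifiers, called 83 higher and 19 lower, and 338 and 169 had such a p. At such shares, 0 of 5 says nothing particular about these genes. With the block edgeR again called 0, and 2 had an unadjusted p under 0.05, namely Slc1a3 and Aldoc, beside 24.1% of all tested genes. The fitted log2 fold change was above 0 for Slc1a3, Gja1 and Glul and below 0 for Aqp4 and Aldoc. Its median over the 5 was 0.14, beside -0.03 over all tested genes. In each of the 5 the 95% interval of the fold change lay between 0.602-fold and 1.90-fold, so a doubling or a halving lay outside it under TMM scaling.

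**Figure D1:**
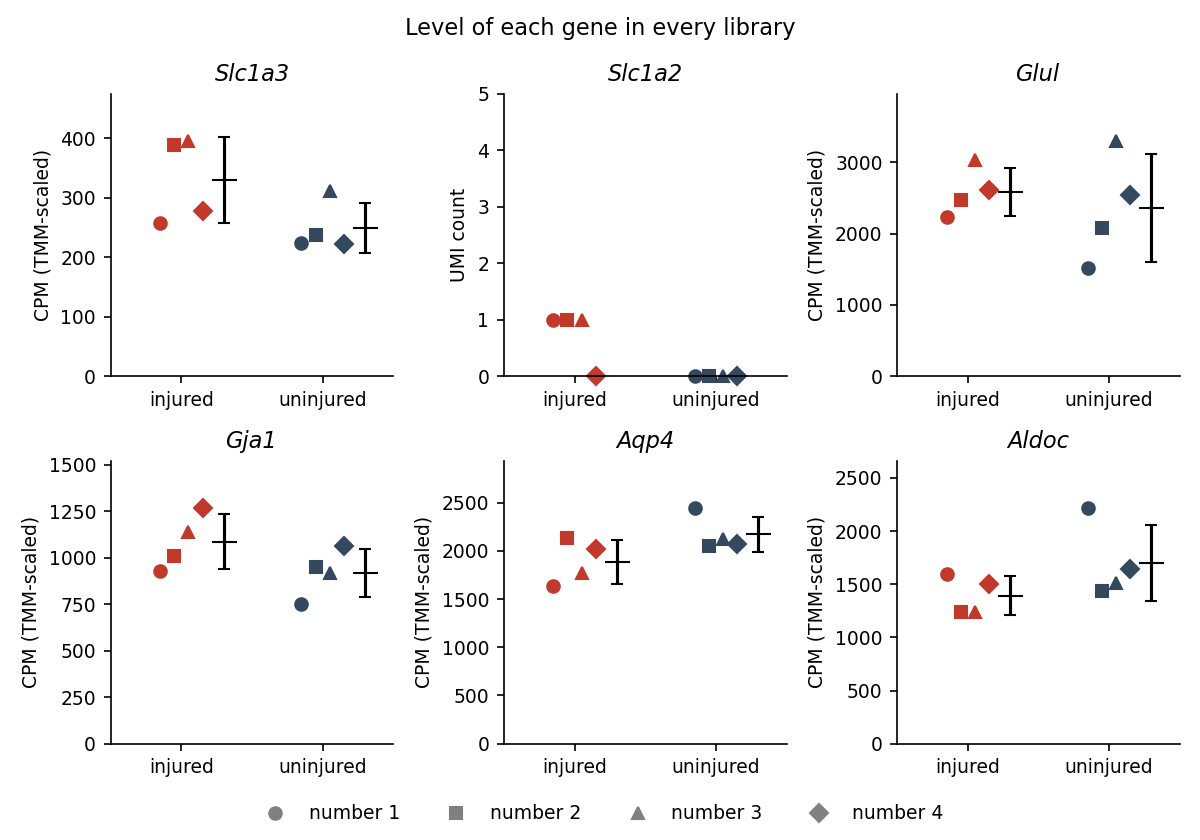
Level of each gene in every library, in TMM-scaled CPM (Slc1a2 in UMIs), with injured libraries on the left and uninjured on the right of each panel, marker shapes for the library number and bars for the mean ± SD (n = 4). The groups overlap in all 5 panels that show CPM, and Slc1a2 has no more than 1 UMI in any library.

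The glutamate transporters were detected very unequally. Slc1a3 (ENSRNOG00000016163) was at 258, 388, 396 and 278 CPM in injured libraries 1 to 4, against 224, 237, 311 and 221 CPM in uninjured libraries 1 to 4. Injured libraries 2 and 3 lay above every uninjured library, while injured 1 and 4 lay below uninjured 3, so the groups overlapped, whereas 9.05% of all tested genes separated them fully. Its level averaged 329.7 ± 72.1 CPM in injured cord, against 248 ± 42.3 CPM in uninjured cord (SD, n = 4 each), a fold change of 1.34 (95% interval 0.940 to 1.90, edgeR adjusted p = 0.472). Its injured libraries held 48 to 121 UMIs each and its uninjured libraries 23 to 47, fewer than those of the other 4 tested genes.

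Slc1a2 (ENSRNOG00000005479), the paralog of Slc1a3 that carries most glutamate uptake in the mammalian forebrain, had 1, 1, 1 and 0 UMIs in injured libraries 1 to 4 and 0 UMIs in each uninjured library. That is 3 of 1041860 UMIs in injured cord, or 2.88 CPM of library totals, and 0 of 603934 in uninjured cord, which allows up to 4.97 CPM (3 counts over the group, for counting error only). No difference between groups was detectable at this depth, and no fold change is given. What limits this count was not tested, and the count cannot serve as a measure of how much Slc1a2 RNA the cord held.

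Glul (ENSRNOG00000049560), which encodes the enzyme that acts on the glutamate so taken up, was at 2235, 2471, 3028 and 2607 CPM in injured libraries 1 to 4, against 1518, 2072, 3304 and 2535 CPM in uninjured libraries 1 to 4. Uninjured cord held both the lowest and the highest library, and the injured values lay inside that range. Its mean was 2585 ± 333 CPM in injured cord, against 2357 ± 756 CPM in uninjured cord (SD, n = 4 each), with a fold change of 1.10 (95% interval 0.778 to 1.55, edgeR adjusted p = 0.862). The uninjured spread of Glul, an SD of 0.47 in log2 CPM, was the widest of any tested member in either group, the others ranging from 0.12 to 0.32. Without uninjured library 1, its lowest, the log2 fold change was -0.04, against 0.14 with all libraries. RefSeq lists 2 Glul pseudogenes on assembly GRCr8, and how the authors' counting treated reads that could come from them is not stated, so the level of Glul is uncertain to that extent.

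Gja1 (ENSRNOG00000000805), the gene of the main astrocyte connexin, was at 929.5, 1009.5, 1135 and 1266 CPM in injured libraries 1 to 4, against 749.6, 948, 915 and 1060.3 CPM in uninjured libraries 1 to 4. The lowest injured library lay below uninjured 2 and 4, so the groups overlapped on this scale. The means were 1085 ± 147 CPM in injured cord, against 918 ± 128 CPM in uninjured cord (SD, n = 4 each), a fold change of 1.18 (95% interval 0.881 to 1.59, edgeR adjusted p = 0.648). Gja1 was the gene whose separation depended on the scaling. As CPM of plain library totals it was at 898, 984, 1041 and 1122 in injured libraries, against 709.8, 819, 743.5 and 846 in uninjured libraries. On that scale every injured library lay above every uninjured library, a separation shared by 7.52% of tested genes, and the fold change of 1.30 (95% interval 0.972 to 1.73) still did not pass the test (edgeR adjusted p = 0.441).

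Aqp4 (ENSRNOG00000016043), the gene of the endfoot water channel, was at 1635, 2131, 1768 and 2024 CPM in injured libraries 1 to 4, against 2445, 2051, 2123 and 2074 CPM in uninjured libraries 1 to 4. Injured libraries 1, 3 and 4 lay below every uninjured library, and injured 2 was second only to uninjured 1 among all libraries. Aqp4 averaged 1889 ± 228 CPM in injured cord, against 2173 ± 183 CPM in uninjured cord (SD, n = 4 each), a fold change of 0.868 (95% interval 0.657 to 1.15, edgeR adjusted p = 0.690).

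Aldoc (ENSRNOG00000011452), the gene of the brain aldolase, was at 1593, 1237, 1243 and 1497 CPM in injured libraries 1 to 4, against 2215, 1433, 1510.1 and 1641 CPM in uninjured libraries 1 to 4. Injured 2 and 3 lay below every uninjured library, injured 1 and 4 lay among the uninjured, and uninjured 1 stood highest. Its means were 1393 ± 181 CPM in injured cord, against 1699.8 ± 354 CPM in uninjured cord (SD, n = 4 each). The fold change was 0.816 (95% interval 0.602 to 1.11, edgeR adjusted p = 0.585).

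**Figure D2:**
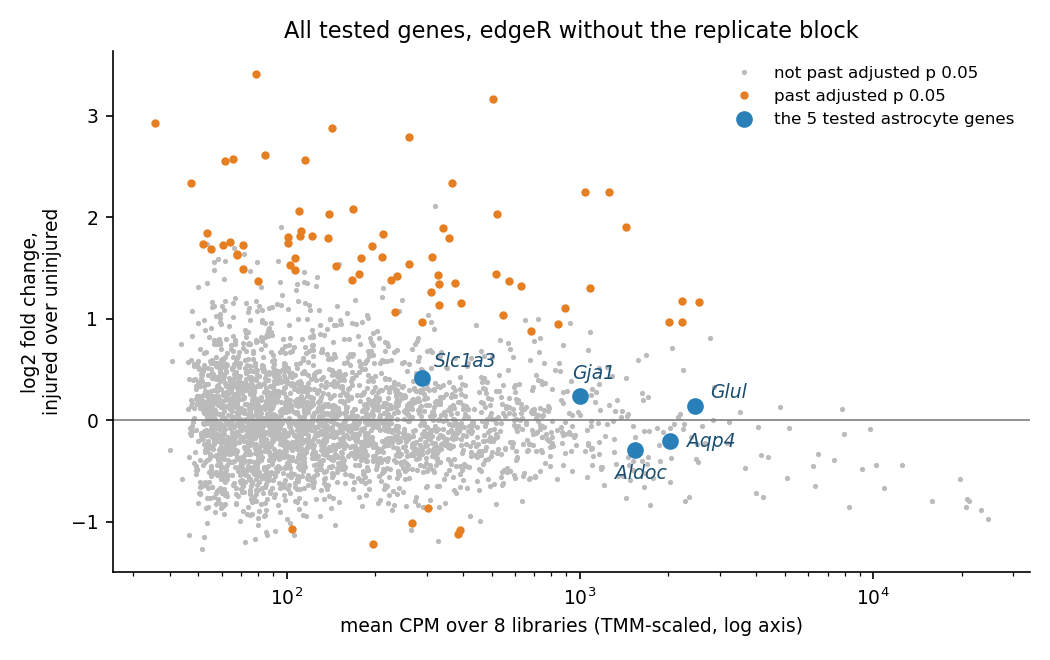
Log2 fold change of injured over uninjured cord against mean TMM-scaled CPM (log axis) for the 3073 tested genes, with the 76 genes past adjusted p 0.05 in orange and the 5 tested astrocyte genes in blue. The 5 lie between -0.29 and 0.42, among the genes that did not pass.

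Together the 6 genes took 0.643%, 0.705%, 0.694% and 0.680% of all UMIs in injured libraries 1 to 4, against 0.677%, 0.583%, 0.663% and 0.601% in uninjured libraries 1 to 4. Their share was 0.681% ± 0.0273 in injured and 0.631% ± 0.0463 in uninjured cord (SD, n = 4 each). The groups overlapped, since injured 1 lay below uninjured 1 and 3. No test was made of this sum, because the genes were chosen with results of these libraries known.

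The choice of scaling moved all fold changes the same way. Library totals count the UMIs of all genes, while the TMM-scaled sums hold those of the tested genes only. With library totals in place of those sums, the median over all tested genes was a log2 fold change of 0.09, against -0.03 with TMM. The log2 fold changes were 0.55 for Slc1a3, 0.38 for Gja1, 0.28 for Glul, -0.08 for Aqp4 and -0.18 for Aldoc. Each of the 5 kept its sign, and 0 passed adjusted p 0.05 in edgeR, beside 3.51% of all tested genes, with Slc1a3 alone at an unadjusted p under 0.05, beside 14% of all tested genes. On this scale the interval of Slc1a3 reached from 1.02-fold to 2.10-fold, so that a doubling lay within it. Correcting the counts for collisions among 6-base tags, assuming tags of that length, again left 0 of the 5 called. In that edgeR fit 71 higher and 5 lower genes of all 3068 tested were called. The highest count among the 6 genes, 771 UMIs of Glul in injured library 2, is 18.8% of the 4096 tags of 6 bases. The highest count of any gene, 4047 UMIs, is 98.8% of them and became 18129 after the correction.

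**Figure D3:**
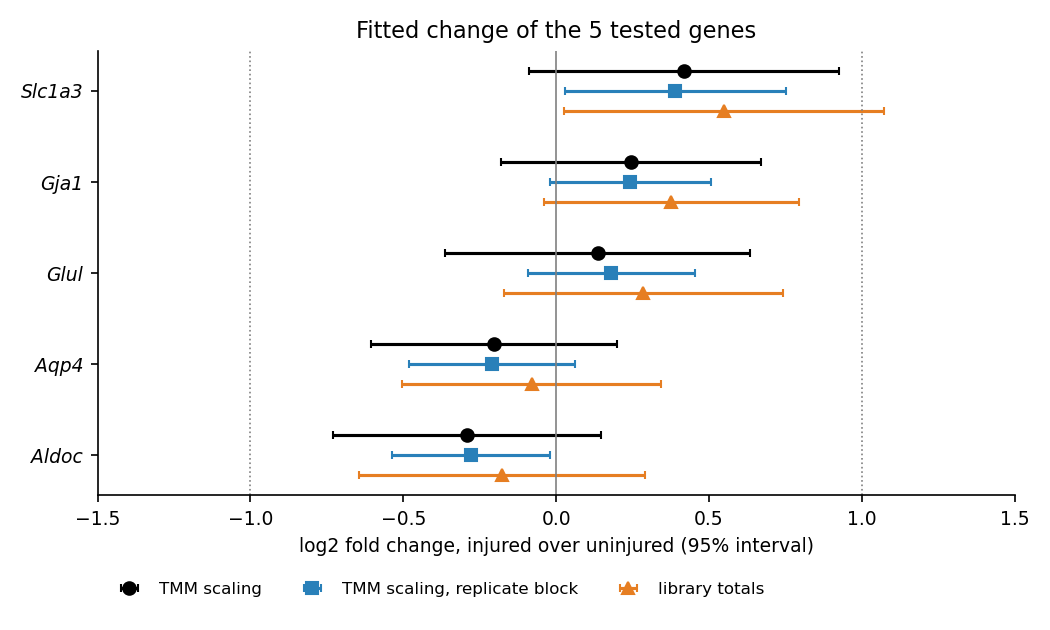
Log2 fold change of injured over uninjured cord for the 5 tested genes with 95% intervals, under TMM scaling, TMM scaling with the replicate block, and library totals. Dotted lines mark a doubling and a halving; the interval of Slc1a3 under library totals is the only interval that crosses a dotted line.

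Libraries that share a number tended to deviate alike in both groups, and this could be seen in single genes. Glul had the same order of numbers in both groups, with 1 lowest, then 2, then 4, then 3. Aldoc also had the same order in both, with 2 lowest, then 3, then 4, then 1. Gja1 was lowest in number 1 and highest in number 4 of both groups, and Slc1a3 was highest in number 3 of both. Aqp4 did not follow, being lowest in number 1 among injured libraries and highest there among uninjured. How many of all tested genes keep the same order in both groups was not counted, so nothing particular to these genes is read from it.

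Within pairs of the same number, the log2 ratio of injured to uninjured CPM for Slc1a3 was 0.20, 0.71, 0.35 and 0.33 in pairs 1 to 4. For Gja1 it was 0.31, 0.09, 0.31 and 0.26. Both genes were thus higher in the injured library of 4 of 4 pairs, a pattern held by 14.9% of tested genes. For Aldoc the ratios were -0.48, -0.21, -0.28 and -0.13, lower in 4 of 4 pairs under TMM scaling, while under library totals pair 4 was at 0.02. Either direction was shared by all 4 pairs in 29.3% of tested genes. That share includes the 14.9% that were higher in all 4, so genes lower in all 4, as Aldoc was, are only the rest of it. Glul was at 0.56, 0.25, -0.13 and 0.04, higher in 3 of 4 pairs, and under library totals at 0.59, 0.43, 0.05 and 0.19, higher in 4 of 4. Aqp4 was at -0.58, 0.06, -0.26 and -0.04, lower in 3 of 4 pairs, and under library totals at -0.55, 0.23, -0.09 and 0.12, lower in 2 of 4. Slc1a3 and Gja1 were higher in 4 of 4 pairs on both scales. The shares of all tested genes given here were counted under TMM scaling only, so the patterns under library totals have no such background.

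**Figure D4:**
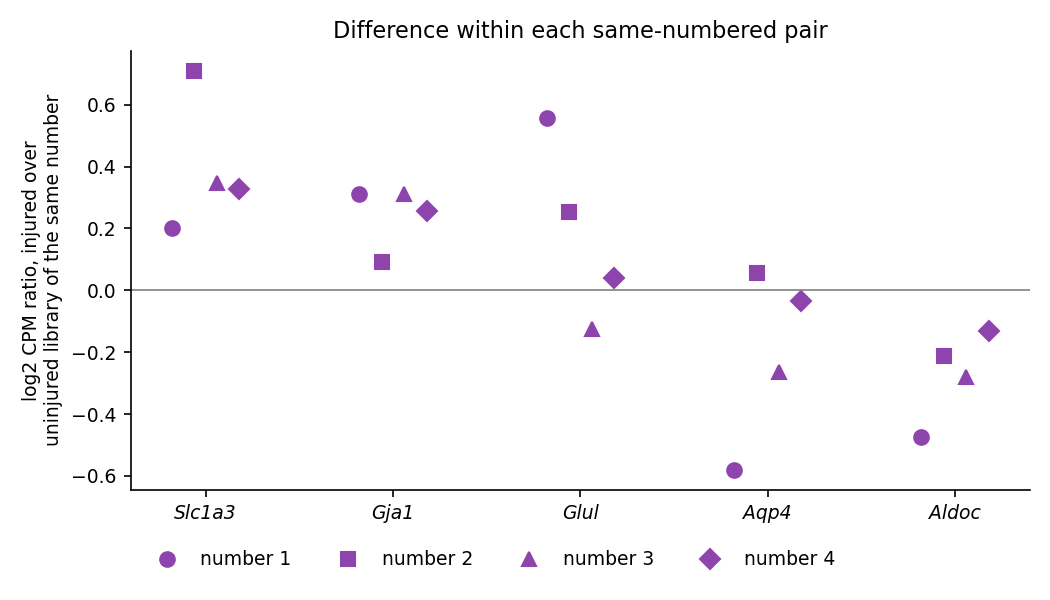
Log2 ratio of TMM-scaled CPM in the injured library to that in the uninjured library of the same number, for each of the 5 tested genes, with marker shapes for the number. All 4 values lie above 0 for Slc1a3 and Gja1 and below 0 for Aldoc, while Glul and Aqp4 have values on both sides; under library totals, not plotted, pair 4 of Aldoc lies above 0 and all 4 pairs of Glul do.

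With the number as a block, the standard error of Glul fell to 0.13, against 0.24 without it, and that of Aldoc to 0.12, against 0.21. The log2 fold changes with the block were 0.39 for Slc1a3 (edgeR adjusted p = 0.170), 0.24 for Gja1 (adjusted p = 0.257) and 0.18 for Glul (adjusted p = 0.430). For Aqp4 and Aldoc they were -0.21 (adjusted p = 0.349) and -0.28 (adjusted p = 0.166). The smallest adjusted p of any alternative tried was 0.0714, for Slc1a3 with the block and library totals, closely followed by Gja1 at 0.0753 in the same fit.

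Ratios between genes of a library do not depend on how libraries are scaled. Slc1a3 had 0.162, 0.313, 0.318 and 0.185 UMIs per UMI of Aldoc in injured libraries 1 to 4, against 0.101, 0.165, 0.206 and 0.135 in uninjured libraries 1 to 4. The injured library had the higher ratio in 4 of 4 pairs, yet the groups overlapped, since injured 1 and 4 lay below uninjured 3. Aqp4 had 1.76, 2.11, 1.56 and 1.60 UMIs per UMI of Gja1 in injured libraries, against 3.26, 2.16, 2.32 and 1.96 in uninjured libraries. Here the injured library was lower in 4 of 4 pairs, and only injured 2 reached into the uninjured range. Of the 10 ratios among the 5 tested genes, 0 separated the groups without overlap, beside 8.64% of all ratios between 2 tested genes, and 6 had the same direction in 4 of 4 pairs, beside 28.4% of all such ratios. The background is over the 3040 tested genes with a count in every library, and since the 10 ratios share 5 genes, nothing particular to these genes is read from it. Those 6 were Slc1a3 and Gja1 each against Aldoc and against Aqp4, and Glul against Aldoc and against Aqp4, each with the first gene higher relative to the second in injured libraries. The mean log2 ratio of Slc1a3 to Aldoc was -2.10 ± 0.51 in injured and -2.77 ± 0.44 in uninjured libraries (SD, n = 4 each), a difference of 0.67. That of Gja1 to Glul was -1.25 ± 0.16 in injured and -1.31 ± 0.37 in uninjured libraries (SD, n = 4 each), a difference of 0.06, the smallest of the 10. The ratios were not tested, and those that share a gene are not independent.

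**Figure D5:**
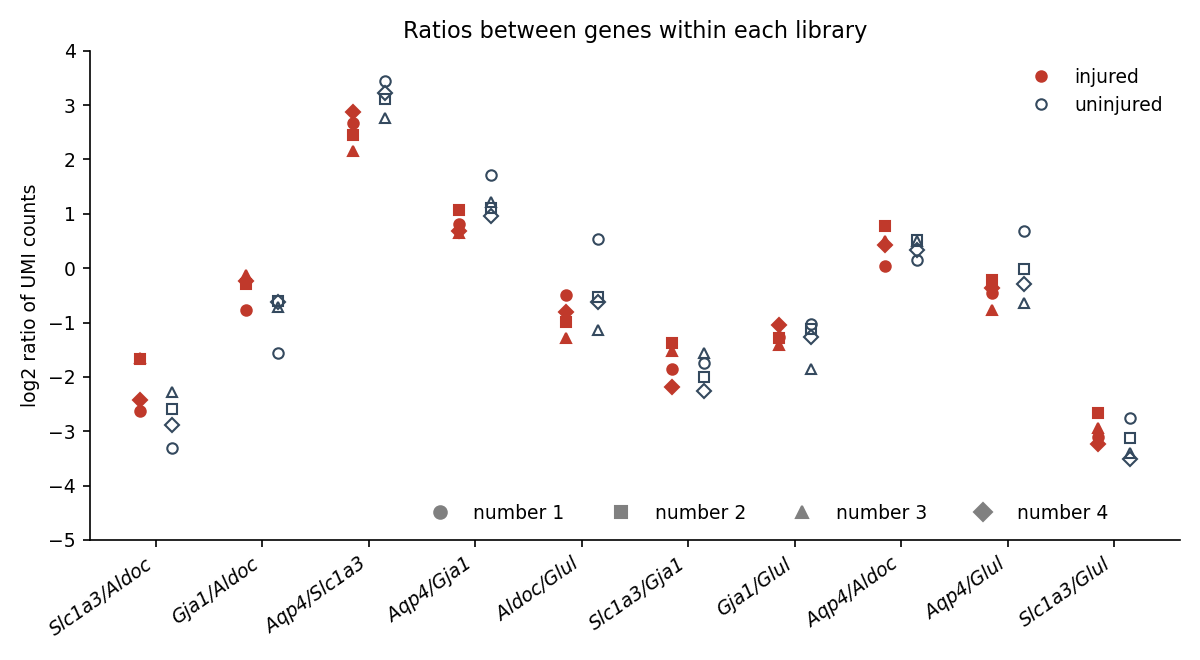
Log2 ratio of UMI counts of 2 genes in the same library, for the 10 ratios among the 5 tested genes, with injured libraries filled and uninjured libraries open and marker shapes for the library number. The groups overlap in each ratio.

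Over the 8 libraries, likeness was measured as Pearson's r of log2 CPM, given as a description, since 8 libraries that share scaling and depth leave room for high values among 3072 other genes. Glul was the member most like Gja1 (r = 0.64, the 244th highest of 3072), and Slc1a3 and Aldoc were the least alike (r = -0.78). No member was among the 2 genes most like another member. The gene most like Gja1 was ENSRNOG00000055000 (r = 0.96) and the gene most like Aldoc was ENSRNOG00000012457 (r = 0.96). Neither identifier has a name in the tables used, and neither gene passed the injury test.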

How the data were processed

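RNA came from flash-frozen cord and was made into CEL-Seq2 libraries for an Illumina HiSeq1500, per the labels' protocols. The authors deposited raw UMI counts per Ensembl gene, and the tools HTSeq 0.6.0 and HISAT2 2.0.4 and the build Rnor_6.0 are named in the submitters' processing notes. Annotation release, tag length and strand use are not stated there. Names of the 6 genes come from the rule that chose them, as 0 of 32883 identifiers matched RefSeq (GRCr8). For that reason the lists of other astrocyte, reactive and cell type marker genes could not be applied. Members and lists were chosen with earlier results of these data known.

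The main test used edgeR 4.0.16 in R 4.3.3 (filterByExpr with min.count 10 and min.total.count 15, TMM, glmQLFit with legacy = FALSE, glmQLFTest), which left 3073 genes with 89.0% of UMIs, and p-values were adjusted over all of them. Standard errors are the log2 fold change over the square root of F, and intervals use the t distribution of the fit. The rule for named genes was all members plus, for each, the 2 genes most like it over the libraries (log2 CPM, prior count 2). DESeq2 1.42.0 and limma 3.58.1 were alternatives. On simulated counts for this comparison over 3073 genes, edgeR found 41.2% of 2-fold and 6.8% of 1.5-fold changes without the block and 74.8% and 24.4% with it. The simulated counts held no effect of the shared number, and each rate took its spread between libraries from its own fit. They thus differ from the real libraries in that respect.

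Replicates exceeded counting noise in 12 of 12 comparisons (chi-square per degree of freedom 2.55 to 7.27). Same-number correlations of deviations from group means were 0.297 to 0.423 (other pairs -0.311 to 0.241), so the title numbers were taken as pairs, a decision from the data. No label says that libraries came from separate animals, so p-values measure only the spread between libraries.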

Additional observations from a re-analysis of the deposited data

How the results depend on the processing

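Of the 5 tested genes, 0 passed adjusted p 0.05 in edgeR, DESeq2 or limma-voom under any of the 23 alternatives, which covered the test, scaling, low-count filter, depth, tag limit, replicate block and leaving out each library or pair. Calls over all genes under the alternatives that moved them are given below. At an unadjusted p under 0.05 the count among the 5 ran from 0 to 3, the highest with the replicate block and total counts. In that edgeR fit 505 higher and 200 lower genes of all 3073 tested had such a p. Log2 fold changes ranged from 0.29 to 0.55 for Slc1a3, 0.14 to 0.38 for Gja1, -0.04 to 0.33 for Glul, -0.30 to -0.07 for Aqp4 and -0.38 to -0.14 for Aldoc. The sign of Glul turned without uninjured replicate 1 (-0.0403), and 0 other signs turned. The replicate block changed no call of these genes. After correction for tag collisions the 6 genes took 0.589% of counts in injured and 0.525% in uninjured libraries, because the correction raises the most abundant genes.

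Against 70 higher and 6 lower genes in all, the calls were 208 and 140 with the replicate block, 284 and 65 with the block and total counts, 200 and 129 with the block and the tag correction, 225 and 13 without the filter, and 105 higher and 3 lower with total counts. DESeq2, which was run on all genes with no filterByExpr and so changed tool and filter at once, called 19 lower genes. In edgeR a filter on the mean count at 20 gave 10, and equal depth gave 3. Leaving out 1 library gave 38 (without uninjured 1) to 115 (without injured 4) higher and 0 (without injured 1, 139 at an unadjusted p under 0.05) to 15 (without uninjured 4) lower genes. The higher count also moved by over 1.5 times without injured 1 (42) and uninjured 2 (46), and the lower count without each of the 8 libraries. Leaving out a pair with the block gave 95, 158, 144 and 318 higher and 47, 91, 63 and 202 lower genes without pairs 1 to 4. The cause was not tested. The lists by gene symbol were not run. Of 12 sets of 4 values examined for a library far from the others, 0 stood out. Sets of 4 values can hardly show such a library, so no conclusion is drawn from this. Uninjured 1 was the highest uninjured library for Aqp4 and Aldoc and the lowest for Gja1 and Glul. Without it the log2 fold change of Aldoc was -0.14, against -0.29 with all libraries.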
